A study of Mus musculus with 6 samples.

Results

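The Ms4a genes described here are 10 members of the membrane-spanning 4A family of the mouse, Ms4a4a, Ms4a4b, Ms4a4c, Ms4a4d, Ms4a6b, Ms4a6c, Ms4a6d, Ms4a7, Ms4a8a and Ms4a14, picked by name out of 55291 genes in the deposited table. All 10 reached the filter for testing, at least 1 TPM in at least 3 of 6 libraries, as did 16506 genes in all. They were measured in polyadenylated RNA of 6 bulk liver tumours, in 2 groups of 3. MKO_PD1 tumours grew in TREM2-MKO mice, which lack the lipid-sensing receptor Trem2 in myeloid cells, and Cre_PD1 tumours grew in LysM-Cre mice, the Cre-only control. LysM-Cre drives Cre recombinase from the lysozyme gene of macrophages, monocytes and neutrophils, so other cells of the host keep Trem2. Every tumour was RIL-175/PD-1R, from the mouse liver cancer line RIL-175, and every mouse had been given anti-PD-1, a checkpoint antibody that releases T cells from inhibition. The labels explain neither PD-1R nor the age of the mice, name no untreated group and tie no library to a batch, and a whole tumour pools cancer cells, liver and immune cells. The comparison asks what loss of myeloid Trem2 changes in tumours under anti-PD-1, and here what it changes in this gene family.

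Ms4a proteins are small tetraspan proteins of the plasma membrane and of internal membranes, and they act mostly as partners that tune other receptors. The family includes the B cell antigen CD20 (Ms4a1) and the beta chain of the high-affinity IgE receptor (Ms4a2), while most of the 10 members are best known from macrophages and monocytes. In humans the MS4A gene cluster has been linked to the amount of soluble TREM2, which makes the family a natural neighbour of the deleted receptor.

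The members lie in 1 cluster on chromosome 19 of GRCm38, the assembly also named mm10, in the order Ms4a8a, Ms4a14, Ms4a7, Ms4a4a, Ms4a4c, Ms4a4b, Ms4a6c, Ms4a6b, Ms4a4d and Ms4a6d. From Ms4a10 to Ms4a3, the outer family genes of the GENCODE M21 annotation, the cluster spans 678559 bases. Ms4a4a, Ms4a4c, Ms4a4b, Ms4a6c, Ms4a6b and Ms4a4d are on the plus strand and the other four on the minus strand. Ms4a6c and Ms4a6b are neighbours on the plus strand with 34319 bases between them, and the sequences before their start sites show how near relatives these genes are. RefSeq (GRCm38.p6) gives a start-site sequence for 9 members, Ms4a6d being the one with none. Among these, Ms4a6c and Ms4a6b shared a run of 48 identical bases within 250 bases before their starts, Ms4a4c and Ms4a4b a run of 20, and no other pair a run above 9. The 2 related sequences are printed 5′ to 3′ on the plus strand, up to the first base that GENCODE counts as exon, with every run of at least 15 bases found in both windows in capitals. The first shows chr19:11469118-11469365 and the second chr19:11518309-11518452.
Ms4a6c: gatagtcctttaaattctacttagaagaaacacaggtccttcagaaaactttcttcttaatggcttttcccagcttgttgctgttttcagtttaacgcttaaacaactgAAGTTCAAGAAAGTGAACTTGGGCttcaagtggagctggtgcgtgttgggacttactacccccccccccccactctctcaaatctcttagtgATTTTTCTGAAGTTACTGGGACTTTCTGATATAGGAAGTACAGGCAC
Ms4a6b: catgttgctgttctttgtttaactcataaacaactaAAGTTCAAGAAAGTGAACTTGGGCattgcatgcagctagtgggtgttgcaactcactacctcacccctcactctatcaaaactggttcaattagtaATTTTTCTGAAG
The first shared run has 24 bases, and 72 of the 250 bases (28.8%) of each window lie in shared runs. In Ms4a6b the longer run goes on into an annotated exon and only its first 12 bases are shown. Neither window held GAGGAAGT, a PU.1 motif, TTGCNNAA, a C/EBP motif, or TATAAA, the TATA box, on either strand. Over 250 bases before each start, these letters occurred in 2.44%, 9.56% and 12.4% of 32851 mouse promoters. Only exact matches were counted, so the search does not show that near matches to these motifs are absent. Among the 10 start sites of the 9 members (Ms4a7 has a pair), GAGGAAGT was found at none, TTGCNNAA at Ms4a4d and TATAAA at Ms4a14 and Ms4a4b.

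Across the 6 libraries Ms4a6d was the most abundant member and Ms4a14 the least, with means of 68.3 and 1.81 TPM. TPM is a level per base of exon, rescaled so that each library sums to 1000000. Between them came Ms4a4a (39.3 TPM), Ms4a6c (19.9), Ms4a6b (15.6), Ms4a8a (10.3), Ms4a7 (9.83), Ms4a4d (9.57), Ms4a4c (7.72) and Ms4a4b (5.17). Neighbours in this order kept it in 6 of 6 libraries except at 3 places. Ms4a6b was above Ms4a8a in 1 MKO_PD1 and 3 Cre_PD1 libraries, and Ms4a8a above Ms4a7 in 2 MKO_PD1 and 0 Cre_PD1 libraries. Ms4a7 was above Ms4a4d in 0 MKO_PD1 and 3 Cre_PD1 libraries. The order within these 3 neighbouring pairs thus differed between the groups, which was not tested. The middle of the order also turns on the length used. On the longest coding transcript in place of all exons, Ms4a7, whose exon total of 4453 bases is 2.83 times that transcript, stands at 27.8 TPM, Ms4a6b at 26.2 TPM and Ms4a4b at 9.55 TPM. Reads per member and library ranged from 30 for Ms4a14 to 2529 for Ms4a6d.

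Between the groups, no member passed the test, and the main feature of the family was the spread among the MKO_PD1 tumours. The 10 members together amounted to 102, 390 and 150 TPM in MKO_PD1 replicates 1, 2 and 3, against 169, 169 and 146 TPM in Cre_PD1 replicates 1, 2 and 3. MKO_PD1 replicate 2 was thus above every Cre_PD1 tumour, replicate 1 below every one, and replicate 3 inside their range. Every one of the 10 members was highest in MKO_PD1 replicate 2, as were 23.3% of all tested genes, and 8 of 10 were lowest in MKO_PD1 replicate 1, as were 70.7% of all tested genes. The level in MKO_PD1 replicate 2 was a median of 3.28 times the mean of the other two MKO_PD1 tumours over the members, against 1.67 times over all tested genes.

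**Figure D1:**
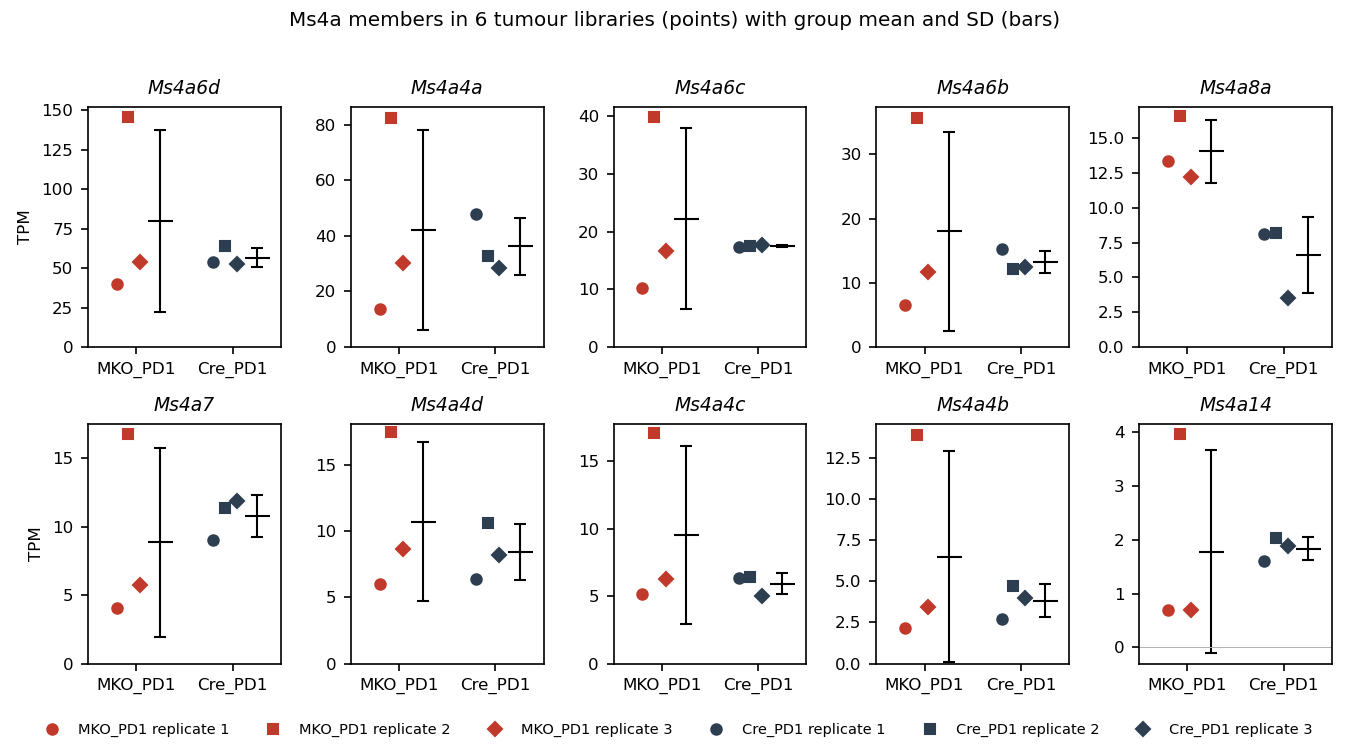
TPM of each Ms4a member (vertical axes, TPM) in the 3 MKO_PD1 and 3 Cre_PD1 tumour libraries, with 1 point per library and the group mean ± SD beside the points, members ordered by mean level. MKO_PD1 replicate 2 is the highest point in all 10 panels, and Ms4a8a is the panel in which all 3 MKO_PD1 points lie above all 3 Cre_PD1 points.

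In limma's moderated test over 16506 genes, 0 of the 10 members passed an adjusted p of 0.05, against 2 of all genes (0.0121%), 1 higher (0.00606%) and 1 lower (0.00606%) in MKO_PD1. One member, Ms4a8a, had an unadjusted p under 0.05, as did 27.9% of all genes, and limma voom on recovered reads also called 0 members. The median log2 difference, MKO_PD1 minus Cre_PD1, was 0.17 over the members and -0.42 over all tested genes. Median-of-ratios scaling puts that second median at -0.02, so some differences are also given relative to it.

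Ms4a8a, which in mice marks a state of alternatively activated macrophages, was the one member whose groups did not overlap (chromosome 19, 11067471 to 11081102). It was at 13.4, 16.6 and 12.2 TPM in MKO_PD1, against 8.16, 8.21 and 3.50 TPM in Cre_PD1, on 231 to 315 and 55 to 177 reads. All 3 MKO_PD1 tumours were above all 3 Cre_PD1 tumours, and MKO_PD1 replicate 2 stood only 1.3 times above the mean of the other two. The log2 difference was 1.05 (SE 0.36), or 1.46 above the all-gene median, and did not pass (limma adjusted p = 0.168). Groups that do not overlap, higher in MKO_PD1, were found for 10.1% of all tested genes, so 1 of 10 members is at the background, and 0 members separated as lower, against 28.9% of all tested genes. Its difference stayed positive in all 16 alternatives, from 0.70 to 1.47, with adjusted p from 0.0791 to 0.41.

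The Ms4a6 genes encode close relatives with myeloid expression, and the protein of mouse Ms4a6d is reported to act with the receptor Vsig4 in restraining the inflammasome gene Nlrp3. Ms4a6d (11586604 to 11604849) was at 39.8, 146 and 53.8 TPM in MKO_PD1, against 54.0, 63.8 and 52.5 TPM in Cre_PD1. Replicate 2 of MKO_PD1 was high, replicate 1 low, and replicate 3 inside the Cre_PD1 range. The log2 difference was 0.26 (SE 0.45, limma adjusted p = 0.683). Ms4a6c (11469366 to 11482192) was at 10.2, 39.9 and 16.6 TPM in MKO_PD1 and at 17.4, 17.5 and 17.6 TPM in Cre_PD1. Its Cre_PD1 level barely varied (17.5 ± 0.114 TPM, SD, n = 3), whereas its MKO_PD1 level spread over 3.93-fold. Ms4a6b (11516512 to 11531256) was at 6.61, 35.7 and 11.7 TPM in MKO_PD1, against 15.2, 12.1 and 12.4 TPM in Cre_PD1. Both had a log2 difference of 0.11 (SE 0.45 for Ms4a6c and 0.54 for Ms4a6b; limma adjusted p = 0.863 and 0.89). In these 2 genes MKO_PD1 replicates 1 and 3 both lay below every Cre_PD1 tumour. Of the 100-base windows of Ms4a6c transcripts, 45.8% also occur in transcripts of other genes, above all the overlapping antisense gene BE692007, and the labels give no strand setting, so reads from those shared stretches cannot be told apart. BE692007 was at 1.59, 8.33 and 3.11 TPM in MKO_PD1 and 2.87, 2.39 and 3.86 TPM in Cre_PD1.

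Ms4a4a, whose protein joins the beta-glucan receptor dectin-1 in mouse macrophages, was the most variable of the abundant members (11375523 to 11392790). It was at 13.7, 82.6 and 30.4 TPM in MKO_PD1, against 47.9, 32.6 and 28.5 TPM in Cre_PD1, a 6.04-fold span within MKO_PD1 and a 1.68-fold span within Cre_PD1. The log2 difference was -0.11 (SE 0.58, limma adjusted p = 0.896), and it turned to 0.35 under both median-of-ratios scaling and quantile normalization. None of its 50-base windows occurs in a transcript of another gene. Ms4a4c (11404770 to 11427246), a monocyte gene of the mouse, was at 5.18, 17.1 and 6.26 TPM in MKO_PD1, against 6.35, 6.42 and 5.02 TPM in Cre_PD1. Its log2 difference was 0.44 (SE 0.43), or 0.85 above the all-gene median (limma adjusted p = 0.474). Ms4a4d (11536801 to 11558467) was at 6.0, 17.5 and 8.69 TPM in MKO_PD1 and at 6.37, 10.6 and 8.22 TPM in Cre_PD1, with a log2 difference of 0.22 (SE 0.41, limma adjusted p = 0.7). Both genes had a single high library, MKO_PD1 replicate 2, and the groups overlapped.

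Ms4a4b is known from T cells, where its protein associates with the costimulatory receptor GITR, encoded by Tnfrsf18. The gene (11443553 to 11467055) was at 2.18, 13.9 and 3.44 TPM in MKO_PD1, against 2.73, 4.73 and 4.0 TPM in Cre_PD1. Its span within MKO_PD1, 6.38-fold, was the widest of the 10 members. The log2 difference was 0.32 (SE 0.56, limma adjusted p = 0.682). The 11 T cell marker genes summed to 69.8, 492 and 114 TPM in MKO_PD1 and to 123, 167 and 214 TPM in Cre_PD1, so Ms4a4b and this list were both highest in MKO_PD1 replicate 2 and lowest in replicate 1. Their part in the level of Ms4a4b was not tested. Tnfrsf18 was at 5.90, 24.9 and 13.3 TPM in MKO_PD1 and at 26.1, 14.7 and 23.1 TPM in Cre_PD1. Its order was that of Ms4a4b within MKO_PD1 and the reverse within Cre_PD1.

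Ms4a7, a macrophage gene that in mice marks macrophages at the borders of the brain, and its neighbour Ms4a14 lie 6584 bases apart on the same strand. Ms4a7 (11321039 to 11336146) was at 4.04, 16.8 and 5.73 TPM in MKO_PD1, against 9.06, 11.4 and 11.9 TPM in Cre_PD1. Ms4a14 (11301249 to 11314454) was at 0.694, 3.96 and 0.698 TPM in MKO_PD1, on 37, 161 and 30 reads, against 1.60, 2.03 and 1.88 TPM in Cre_PD1, on 66, 99 and 67 reads. For both, as for Ms4a6b and Ms4a6c, MKO_PD1 replicates 1 and 3 lay below, and replicate 2 above, every Cre_PD1 tumour. The log2 differences were -0.47 (SE 0.47, limma adjusted p = 0.476) for Ms4a7 and -0.22 (SE 0.45, limma adjusted p = 0.726) for Ms4a14. Relative to the all-gene median these are -0.05 and 0.20, and under median-of-ratios scaling they are -0.06 and 0.01. Without MKO_PD1 replicate 2 both passed, at -1.01 (limma adjusted p = 0.0311) and -0.74 (limma adjusted p = 0.0449). Of the libraries left, Ms4a14 reached 1 TPM only in Cre_PD1. It thus met the filter of that fit through the group where it was higher, and its pass as lower gives no support. In that fit the all-gene median was -0.66, and 7314 of 15940 genes passed (45.9%), 7.88% as higher and 38% as lower in MKO_PD1. Passing as lower, 2 of 10 members is no more than the background.

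**Figure D2:**
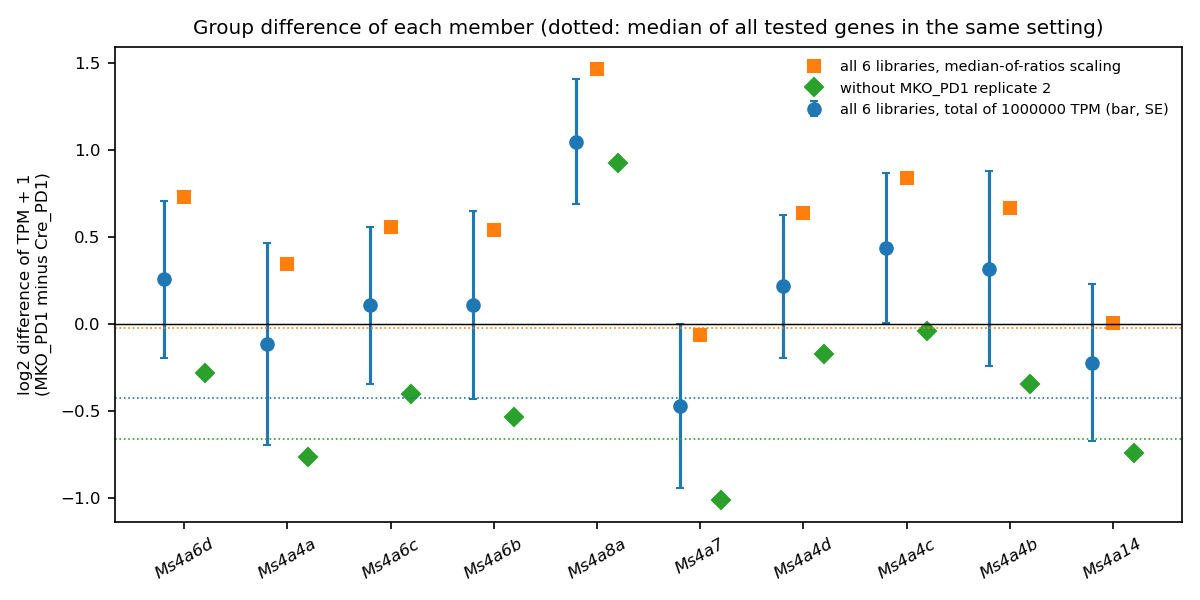
Log2 difference of TPM + 1, MKO_PD1 minus Cre_PD1 (vertical axis), of each member in the fit of all 6 libraries with its SE, under median-of-ratios scaling and without MKO_PD1 replicate 2, with the median of all tested genes in each setting as a dotted line. Ms4a8a stays above 0 in all 3 settings and Ms4a7 below 0, while Ms4a6d, Ms4a6c, Ms4a6b, Ms4a4d, Ms4a4c and Ms4a4b lie above 0 with all libraries and below 0 without MKO_PD1 replicate 2.

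The number of members that separated the groups depended on the scaling. Under median-of-ratios scaling 5 members were higher in every MKO_PD1 tumour than in any Cre_PD1 tumour (Ms4a4c, Ms4a4d, Ms4a6c, Ms4a6d and Ms4a8a), against 18.6% of all tested genes. Under quantile normalization there were 4, the same genes without Ms4a4d, against 15.4% of all tested genes. In both scalings 0 members separated as lower, against 21.2% and 26.7% of all tested genes. Without MKO_PD1 replicate 2, on the TPM scale, 4 members (Ms4a6b, Ms4a6c, Ms4a7 and Ms4a14) separated as lower, where 60.9% of all tested genes did, and Ms4a8a separated as higher, where 14.2% did.

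The marker lists of cell types did not all move alike over the libraries. The 14 macrophage genes were all detected and 14 of 14 tested, with 0 past the threshold, 12 above 0 and a median log2 difference of 0.52. They summed to 3517, 7384 and 3860 TPM in MKO_PD1, against 3045, 3912 and 3894 TPM in Cre_PD1. The 10 neutrophil genes summed to 296 to 1208 TPM in MKO_PD1 and 117 to 239 TPM in Cre_PD1, and the 8 monocyte genes to 230 to 1011 TPM in MKO_PD1 and 984 to 1554 TPM in Cre_PD1. Yet 6 of the 8 monocyte genes had a log2 difference above 0, with a median of 0.94, so this sum does not stand for most of them. The 10 Kupffer cell genes, of the resident macrophages of the liver, ran the other way within MKO_PD1, with 2534, 558 and 1643 TPM, against 280 to 639 TPM in Cre_PD1. The 24 hepatocyte genes did likewise, at 163997, 42258 and 116327 TPM in MKO_PD1, against 16448 to 34150 TPM in Cre_PD1. Resident or perivascular macrophage genes, at 185, 156 and 186 TPM in MKO_PD1 against 65.5 to 90.1 TPM in Cre_PD1, were also lowest within MKO_PD1 in replicate 2. So were endothelial genes, at 201, 137 and 195 TPM in MKO_PD1 against 84.2 to 105 TPM in Cre_PD1. Dendritic cell genes (7 of 7 detected) summed to 15.5 to 33.4 TPM in MKO_PD1 and 13.6 to 19.7 TPM in Cre_PD1, B cell genes (7 of 7) to 20.3 to 24.3 and 8.78 to 34.1 TPM, and mast cell or basophil genes (8 of 8) to 18.0 to 76.6 and 8.60 to 29.5 TPM. The list of epithelial tumour genes, keratins among them, summed to 1399 to 4505 TPM in MKO_PD1 and 7400 to 13640 TPM in Cre_PD1. Its transcripts were present in every library, but a bulk sum does not show which cells they came from. No defining marker of these lists was at 0 in all libraries. In bulk RNA fewer cells of a type and less RNA per cell cannot be told apart, and the part of cell content in the members' levels was not tested.

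**Figure D3:**
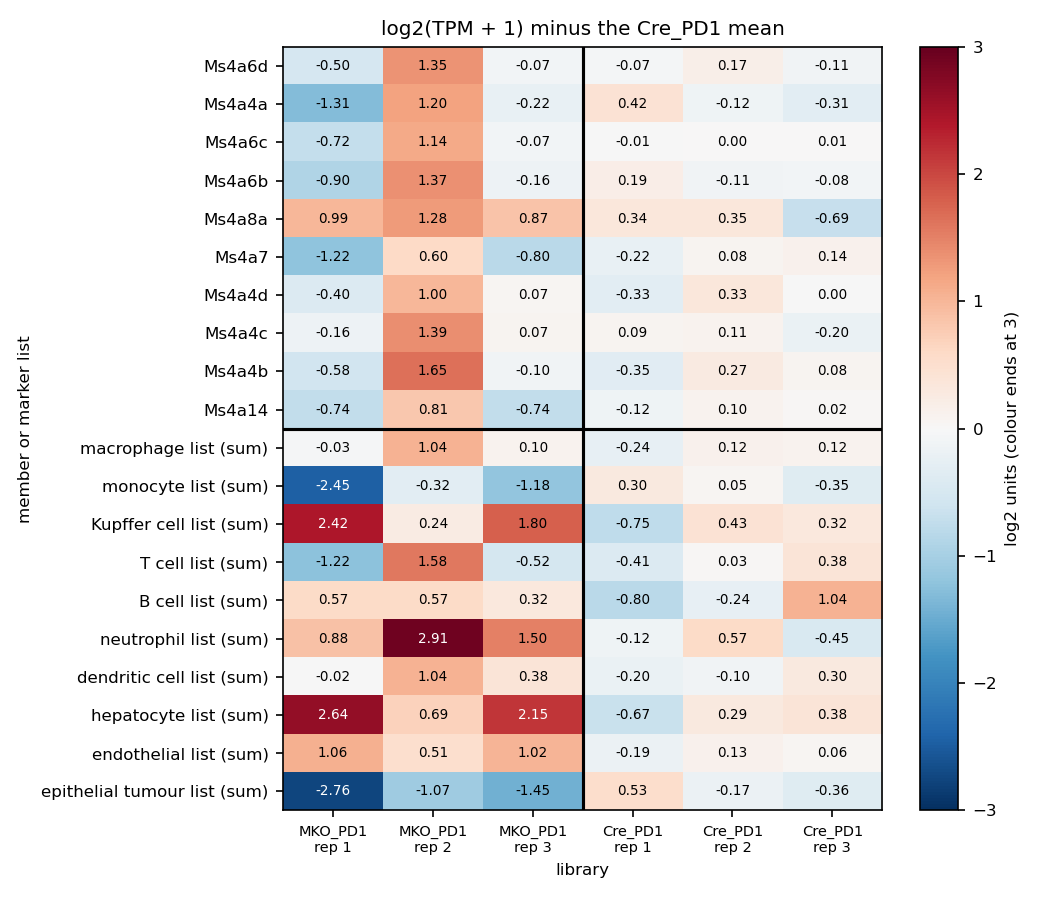
Log2(TPM + 1) of each member and of the summed TPM of each marker list (rows) in each library (columns), minus the mean of the 3 Cre_PD1 libraries, in log2 units given in the cells. The column of MKO_PD1 replicate 2 is above 0 for all 10 members and for the macrophage (1.04), T cell (1.58) and neutrophil (2.91) lists, and MKO_PD1 replicate 1 is highest for the hepatocyte (2.64) and Kupffer cell (2.42) lists.

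The members were next set against the macrophages of their own library, as the log2 level minus the mean log2 level of the 14 macrophage genes. Ms4a7 stood at -4.54, -3.76 and -4.37 in MKO_PD1, against -3.46, -3.38 and -3.29 in Cre_PD1, a difference of -0.85 with groups that did not overlap. Ms4a14 stood at -6.11, -5.60 and -6.36 in MKO_PD1, against -5.41, -5.41 and -5.45 in Cre_PD1, a difference of -0.60, also without overlap. Both had an exact two-sided permutation p = 0.1, the smallest that 3 against 3 allows, without adjustment for the 10 members compared. Trem2 itself, at -3.75, -3.67 and -4.16 in MKO_PD1 and -3.26, -2.88 and -2.99 in Cre_PD1, had a difference of -0.82 (exact permutation p = 0.1). The other eight members overlapped, with differences from -0.49 for Ms4a4a to 0.67 for Ms4a8a. Non-overlap as lower in MKO_PD1 on this measure was found for 63.1% of all tested genes, whose median difference was -0.79, against 2 of 10 members and a median of -0.21. The separation of Ms4a7 and Ms4a14 from the macrophage genes is therefore no more than most genes showed. Without MKO_PD1 replicate 2, 7 members lay lower without overlap, against 65.8% of all tested genes, and Ms4a8a higher, against 12.9%, and with a pseudocount of 0.1 Ms4a14 overlapped, leaving 1 member.

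**Figure D4:**
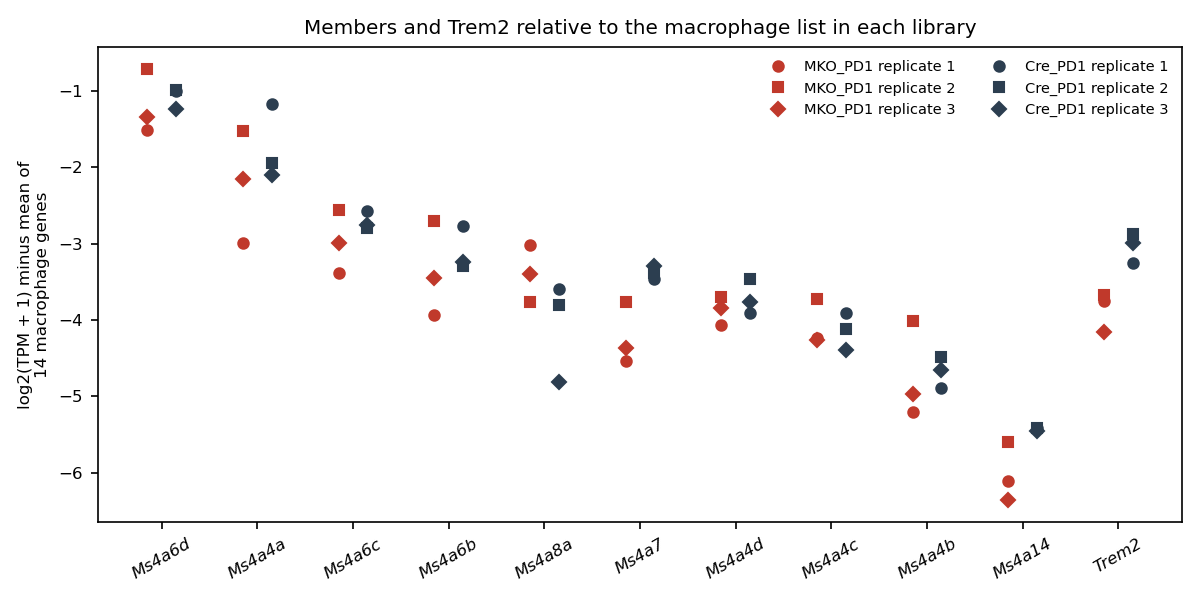
Log2(TPM + 1) of each member and of Trem2 minus the mean of 14 macrophage genes in the same library (vertical axis, log2 units), with 1 point per library. The MKO_PD1 points of Ms4a7, Ms4a14 and Trem2 lie below all their Cre_PD1 points, and those of the other members overlap with them.

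Within the family, the steadiest shares of the summed level were those of Ms4a6d and Ms4a6c. Ms4a6d made up 39.1, 37.4 and 36% of it in MKO_PD1 and 32.0, 37.7 and 36.1% in Cre_PD1. Ms4a6c made up 9.98 to 11.1% in MKO_PD1 and 10.3 to 12.1% in Cre_PD1. Other shares varied more, that of Ms4a4a from 13.4 to 21.2% in MKO_PD1 and 19.2 to 28.4% in Cre_PD1, and that of Ms4a4b from 2.14 to 3.57% in MKO_PD1 and 1.62 to 2.79% in Cre_PD1. The shares of 2 members did not overlap between the groups, 1 lower and 1 higher in MKO_PD1. Set against the same sum, 44.9% of all tested genes separated as lower and 1.11% as higher. Ms4a7 held 3.97, 4.31 and 3.83% in MKO_PD1, against 5.36, 6.72 and 8.20% in Cre_PD1, and Ms4a4c held 5.09, 4.38 and 4.19%, against 3.76, 3.79 and 3.45%. Ms4a8a varied most within MKO_PD1, at 13.2, 4.26 and 8.14%, against 4.84, 4.84 and 2.40% in Cre_PD1. These shares are given without a test, and since they sum to 100%, a larger share of one gene lowers the others.

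**Figure D5:**
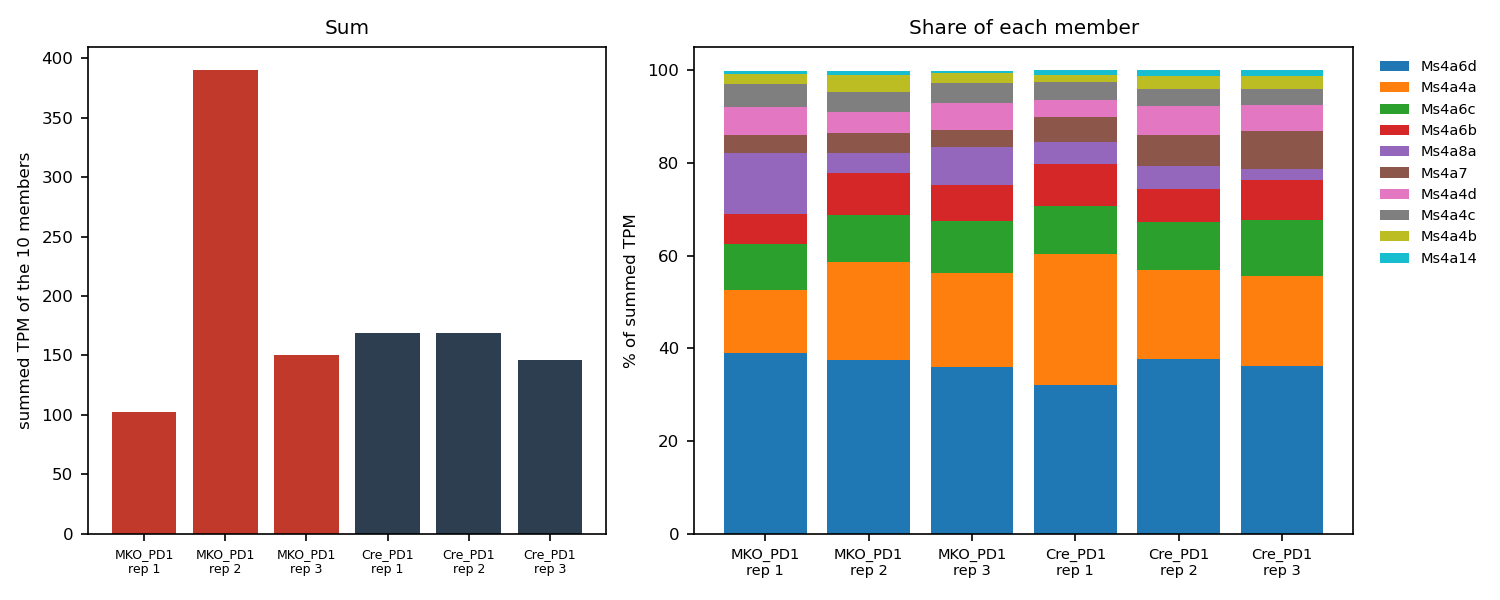
Summed TPM of the 10 members in each library (left, TPM) and the share of each member in that sum (right, %). The sum is 390 TPM in MKO_PD1 replicate 2 and 102 to 169 TPM in the other libraries, and the share of Ms4a7 is 3.83 to 4.31% in MKO_PD1 and 5.36 to 8.20% in Cre_PD1.

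Trem2 and the genes of reported protein partners of the family were counted as a list of 8, of which 0 passed the test, 4 were above 0 and the median log2 difference was 0.09. Trem2 was at 7.68, 18.0 and 6.81 TPM in MKO_PD1, against 10.5, 16.5 and 14.9 TPM in Cre_PD1 (log2 difference -0.44, SE 0.40, limma adjusted p = 0.432). It thus overlapped between the groups and, like the members, was highest in MKO_PD1 replicate 2, and whole-gene reads do not measure a deleted part. Without MKO_PD1 replicate 2 it passed at -0.84 (limma adjusted p = 0.045). In that fit 38% of all genes passed as lower in MKO_PD1, and the all-gene median was -0.66. With all 6 libraries Trem2 was at -0.01 under median-of-ratios scaling and -0.07 under quantile normalization. Clec7a, which encodes dectin-1, was at 98.8, 199 and 121 TPM in MKO_PD1, against 62.6, 89.8 and 78.9 TPM in Cre_PD1, without overlap (log2 difference 0.80, SE 0.32, limma adjusted p = 0.169). Vsig4, a complement receptor of Kupffer cells, was at 252, 34.9 and 150 TPM in MKO_PD1, against 16.2, 44.7 and 41.4 TPM in Cre_PD1, lowest among the MKO_PD1 tumours in replicate 2, where Ms4a6d was highest. Nlrp3 was at 5.30, 18.6 and 8.09 TPM in MKO_PD1 and 5.16, 5.62 and 5.82 TPM in Cre_PD1. The signalling adaptor gene Tyrobp, through which Trem2 signals, was at 276, 614 and 311 TPM in MKO_PD1 and 219, 290 and 230 TPM in Cre_PD1. Of the proteases that cut Trem2 from the cell surface, Adam10 was at 38.2, 164 and 87.8 TPM in MKO_PD1, against 195, 148 and 186 TPM in Cre_PD1, and Adam17 at 18.4, 49.6 and 26.9 TPM, against 42.3, 39.0 and 41.7 TPM. Without MKO_PD1 replicate 2, Vsig4 passed at 2.60, Adam10 at -1.58 and Adam17 at -0.85 (limma adjusted p = 0.029, 0.029 and 0.032). In the same fit 7.88% of all genes passed as higher and 38% as lower. Median-of-ratios scaling of all 6 libraries put Vsig4 at 2.26, Adam10 at -0.61 and Adam17 at -0.02, and none of them passed.

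The table holds 21 Ms4a genes, and the 11 outside the 10 members were low or at 0. Ms4a5, Ms4a12, Ms4a13 and Ms4a18 were at 0 in every library. Ms4a3, a gene of granulocyte and monocyte progenitors, was at 0.971, 3.40 and 0.803 TPM in MKO_PD1, against 0, 0.221 and 0 TPM in Cre_PD1. That is 104 reads over MKO_PD1 and 5 reads over Cre_PD1, with every MKO_PD1 tumour above every Cre_PD1 tumour, but the gene missed the filter and was not tested. Such separation as higher was found for 10.1% of all tested genes. The granule genes Mpo and Elane, named after their values were seen, were likewise higher in every MKO_PD1 tumour, at 4.08 to 15.6 TPM against 1.01 to 1.85 TPM and at 10.3 to 31.9 TPM against 1.70 to 5.42 TPM. Both belong to the list of 10 neutrophil genes, of which 10 had a log2 difference above 0, 6 separated as higher and 0 passed the test. Ms4a1 (CD20) was at 0.900, 0.825 and 0.596 TPM in MKO_PD1, against 0.143, 0.135 and 1.29 TPM in Cre_PD1, and Ms4a2 at 0.271 to 0.427 and 0.140 to 0.365 TPM. Tmem176a and Tmem176b, related membrane proteins abundant in myeloid cells, were at 195 ± 54.9 and 371 ± 54.8 TPM in MKO_PD1, against 119 ± 27.7 and 268 ± 40.9 TPM in Cre_PD1 (SD, n = 3 each). In MKO_PD1 replicates 1, 2 and 3 Tmem176a was at 244, 136 and 206 TPM and Tmem176b at 398, 308 and 408 TPM. Unlike the 10 members, both were thus lowest within MKO_PD1 in replicate 2. Neither of these 2 genes passed (limma adjusted p = 0.185 and 0.242), and without MKO_PD1 replicate 2 Tmem176a passed at 0.94 (limma adjusted p = 0.0336). In that last fit 7.88% of all genes passed as higher in MKO_PD1.

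The genes whose levels most resembled each member over the 6 libraries differed from member to member. The 3 with the highest Pearson r were named for each, among 10874 genes (10875 for Ms4a14) averaging at least 5 TPM, as a description without a test. For Ms4a4b they were Mfng, H2-Q4 and Ccl5, a chemokine gene of T and NK cells (r of 0.998, 0.997 and 0.996). For Ms4a7 they were Psmb9 and Psme1, of the interferon-inducible immunoproteasome and its activator, and Fam234a (0.998, 0.997 and 0.997). Ms4a6b was most like Cybb, the phagocyte oxidase gene, Rab27a and Tbkbp1 (0.997, 0.995 and 0.994), Ms4a6c most like Tlr6, a Toll-like receptor gene, Gng2 and Rftn1 (0.997, 0.997 and 0.996), and Ms4a6d most like Pstpip1, Galnt6 and C5ar1, a complement receptor gene (0.993, 0.993 and 0.989). Ms4a4d was most like the chemokine gene Ccl4, Tmem159 and Il1rn, which encodes the interleukin-1 receptor antagonist (0.996, 0.994 and 0.993). Ms4a4a was most like Stx3, Pim1 and Rab7 (0.990, 0.988 and 0.986), and Ms4a14 most like Tmco4, Mdp1 and Smim24 (0.992, 0.989 and 0.986). Ms4a4c was most like Sirpb1a, Mefv and Gmfg (0.991, 0.983 and 0.981), but over the 5 libraries other than MKO_PD1 replicate 2 these were 0.856, 0.774 and 0.553. Ms4a8a had the fewest genes with r above 0.95, 5, against 54 to 341 for the other members, and was most like Mir142b, Nudt18 and the haem oxygenase gene Hmox1 (0.977, 0.975 and 0.959). All points share the high MKO_PD1 replicate 2 library and 1 scaling, and apart from those of Ms4a4c the values without that library were 0.921 to 0.999. The genes had been picked for the highest r over all 6 libraries, so high values over 5 of the same libraries are no independent support.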

How the data were processed

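Per the submitters' processing notes, reads were aligned with STAR 2.7.10a to mm10 and counted per gene with featureCounts 2.0.3 of Subread, and how the table was made from the counts is not given in the sources used here. The authors deposited 1 signal value per gene and library, a read signal divided by gene length that is named TPM but sums to 70363 to 105281 per library. The design had assumed TPM, so columns were rescaled to sum to 1000000. Multiplied by GENCODE M21 exon length and divided by 8.03, the deposited signal gave whole reads within 0.001 for 29354 of 29802 genes (98.5%), and 26747481 to 34265123 reads per library.

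Values were analysed as log2(TPM + 1) with limma 3.58.1 in R 4.3.3 (mean-variance trend, no covariate), and p-values were adjusted by the Benjamini-Hochberg method across 16506 genes. Genes needed at least 1 TPM in at least 3 of 6 libraries, and an adjusted p under 0.05 counted as passing. Levels relative to the macrophage genes were compared by exact two-sided permutation tests. Log2 differences are MKO_PD1 minus Cre_PD1 and understate low genes. Nothing says that same-numbered libraries share an animal or batch. The p-values measure only the spread between these tumours. The procedure was also run on simulated data with the same spread in both groups, which cannot show how it performs under the uneven spread seen here. Members, marker lists and tests were chosen with earlier results of these data known. The named genes are all members, the detected genes of the other-family and partner lists, and the 3 genes most like each member. Alternatives changed the pseudocount, filter, scaling, trend, block, unit, threshold and libraries. The values as deposited were added after seeing the data.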

Additional observations from a re-analysis of the deposited data

How the results depend on the processing

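The 10 members rest on 30 reads or more per library, and groups of 3 limit every test. With all libraries, 2 of 16506 genes and 0 members passed. The count of all genes was 0 without a filter, with a filter of 5 TPM, with quantile normalization and with voom on recovered reads, 1 with median-of-ratios scaling, and 0 to 7314 when each library was left out in turn, 7314 being without MKO_PD1 replicate 2. The replicate block gave 0 genes and 0 members. Same-numbered libraries correlated at -0.42, -0.26 and 0.05 in their deviations from the group means, and differently numbered ones at -0.23 to 0.39. With groups of 3 these correlations cannot show whether same-numbered libraries share an animal or batch. Members passing numbered 0 to 2 and members separating as lower 0 to 4 over the left-out libraries. The counts of 2 and 4 were both without MKO_PD1 replicate 2, where 38% of all genes passed as lower and 60.9% of all tested genes separated as lower. Members separating as higher numbered 5 with median-of-ratios scaling, against 18.6% of all tested genes, and 4 with quantile normalization, against 15.4%. Trem2 ranged from -0.84 to -0.20 over the left-out libraries, and was at -0.01 with median-of-ratios scaling and -0.07 with quantile normalization. Members lying lower than the macrophage genes without overlap numbered 2 to 7 over the left-out libraries and 1 with a pseudocount of 0.1. The count of 7 was without MKO_PD1 replicate 2, where 65.8% of all tested genes lay lower without overlap. With all libraries and a pseudocount of 1 that share was 63.1%.

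Ms4a4a turned to 0.35 with median-of-ratios scaling and quantile normalization and 0.01 with the values as deposited, and Ms4a14 turned to 0.01 with median-of-ratios scaling. Over the left-out libraries the log2 differences ranged from -0.76 to 0.49 for Ms4a4a, -0.34 to 0.78 for Ms4a4b, -0.04 to 0.73 for Ms4a4c, -0.17 to 0.54 for Ms4a4d, -0.53 to 0.61 for Ms4a6b, -0.40 to 0.53 for Ms4a6c, -0.28 to 0.64 for Ms4a6d and -0.74 to 0.04 for Ms4a14, and the cause was not tested.

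Relative to the macrophage genes, Ms4a4c was at -0.25 against Csf1r alone. Over the left-out libraries this difference ranged from -0.41 to 0.19 for Ms4a4b, -0.11 to 0.18 for Ms4a4c, -0.60 to 0.02 for Ms4a6b and -0.35 to 0.05 for Ms4a6d. The values as deposited and the counts relative to the macrophage genes were chosen after seeing the data.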
